A study of Mus musculus with 3 samples.

Results

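L1 peaks near the centromeres are the 2400 peaks of the L1 RNA ChIRP peak list whose midpoint lies below 13000000 bp on chromosomes 1 to 19 (mouse build mm9), out of 21985 peaks on all autosomes and 24666 in the whole list. Assembled sequence of the mouse autosomes starts near 3 Mb, so these are the peaks of the first 10 Mb of assembled sequence, called the proximal window here. The limit of 13 Mb is a distance and not a measured value, but it was chosen with earlier results of these data known. The study made 3 libraries from E14 cells, a line of mouse embryonic stem cells, all without a named treatment: ChIRP of L1 RNA, ChIRP of Malat1 RNA and input DNA. ChIRP recovers the chromatin crosslinked to an RNA with biotinylated DNA probes. Only the L1 library was analysed here, with 1 library in its group, and the Malat1 and input libraries were not used here. The labels name genomic DNA as the molecule while the protocol describes reverse transcription of RNA, so a peak is not shown to be a place where L1 RNA sat.

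L1, or LINE-1, is a retrotransposon that copies itself through an RNA intermediate and encodes an RNA-binding protein and a reverse transcriptase. Its copies make up a large share of the mouse genome and are most frequent in AT-rich, gene-poor sequence. Mouse autosomes carry the centromere at 1 end, flanked by long arrays of satellite DNA packed as constitutive heterochromatin. These arrays are not part of the assembled sequence, so the peaks described here lie in the assembled sequence beside them, whose repeat content was not examined. The list gives each peak's position and width only, with no height or score, and the read depth is unknown. No spread between replicates exists for any value below, and none was tested. Intervals marked 95% cover counting error only and treat each peak as independent, although peaks cluster, so they are too narrow.

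The proximal windows held more L1 peaks than the rest of the autosomes. Their 2400 peaks over 190 Mb made 12.6 peaks per Mb (exact Poisson 95% interval 12.1 to 13.1), against 8.83 per Mb (8.70 to 8.95) over the 2219 Mb from the window to the last peak of each autosome. The pooled ratio was 1.43 (95% interval 1.37 to 1.49). The windows made up 7.89% of the autosomal span and held 10.9% of the autosomal peaks (exact binomial 95% interval 10.5 to 11.3). By covered bases the contrast was larger: peaks covered 8.94% of the windows and 5.76% of the rest, a ratio of 1.55.

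The autosomes differed widely in this respect. Window density exceeded that of the same autosome's rest on 17 of 19 autosomes, and the counting interval of the ratio lay above 1 on 12 of them. The ratio ranged from 0.44 to 2.96, with a median of 1.45. Across autosomes the windows held 12.6 ± 5.21 peaks per Mb (mean ± SD, n = 19 autosomes, which are not replicates), and the rest held 8.64 ± 1.57.

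Chromosome 9 had the highest ratio. Its window held 196 peaks, or 19.6 per Mb (95% interval 17.0 to 22.5), against 6.63 per Mb on the rest, a ratio of 2.96 (2.51 to 3.47). The window is 8.27% of that chromosome's span and contained 21.1% of its peaks. All 10 bins of 1 Mb in it held at least 10 peaks, so the high count was spread over the whole window.

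Chromosomes 3, 1 and 7 had windows as dense as that of chromosome 9. Chromosome 3 held 224 window peaks, the most of any autosome, and 22.4 per Mb against 11.9 on its rest (ratio 1.89). Chromosome 1 held 202 peaks and 20.2 per Mb against 10.4 (ratio 1.94). Chromosome 7 held 195 peaks and 19.5 per Mb against 8.75 (ratio 2.23). The counting intervals of these 4 window densities overlapped, so their order is not resolved, and on chromosomes 1 and 3 the rest was dense as well.

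Chromosomes 4, 5, 6 and 13 formed a middle group by window count, with ratios between 1.57 and 2.01. The windows of chromosomes 4 and 5 held 157 peaks each, that of chromosome 6 held 159 and that of chromosome 13 held 131. Chromosome 5 had the larger ratio, 2.01, because its rest was sparser, at 7.81 per Mb against 9.85 on chromosome 4. Chromosomes 18 and 12 followed with 119 and 113 window peaks and ratios of 1.40 and 1.25.

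On 5 autosomes the window could not be told from the rest by counting error. Chromosome 14 held 103 window peaks (ratio 1.08, 95% interval 0.87 to 1.32), chromosome 15 held 99 (1.10, 0.88 to 1.35) and chromosome 10 held 98 (1.12, 0.90 to 1.38). Chromosome 2 held 96 (1.16, 0.93 to 1.43) and chromosome 8 held 89 (1.05, 0.83 to 1.30). On chromosome 8 the direction also turned with the measure, since peaks covered 4.98% of its window and 5.34% of its rest.

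Chromosomes 11 and 19 had few window peaks but sparser rests. Chromosome 11, known for its high gene density, held 85 window peaks, or 8.50 per Mb, below the pooled rest of all autosomes and still 1.73 times its own rest of 4.90 per Mb (95% interval of the ratio 1.36 to 2.18). Chromosome 19 held 86, or 8.60 per Mb, against 5.92 on its rest (ratio 1.45, 1.13 to 1.86).

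Chromosomes 16 and 17 went the other way. The window of chromosome 16 held 51 peaks, or 5.10 per Mb against 9.18 on the rest, a ratio of 0.56 (0.41 to 0.74). The window of chromosome 17 held 40 peaks, or 4 per Mb against 9.05, a ratio of 0.44 (0.31 to 0.61). For both, the counting interval lay below 1. Among the consecutive 10 Mb windows along chromosome 16 the proximal one was the emptiest of 9.

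**Figure D1:**
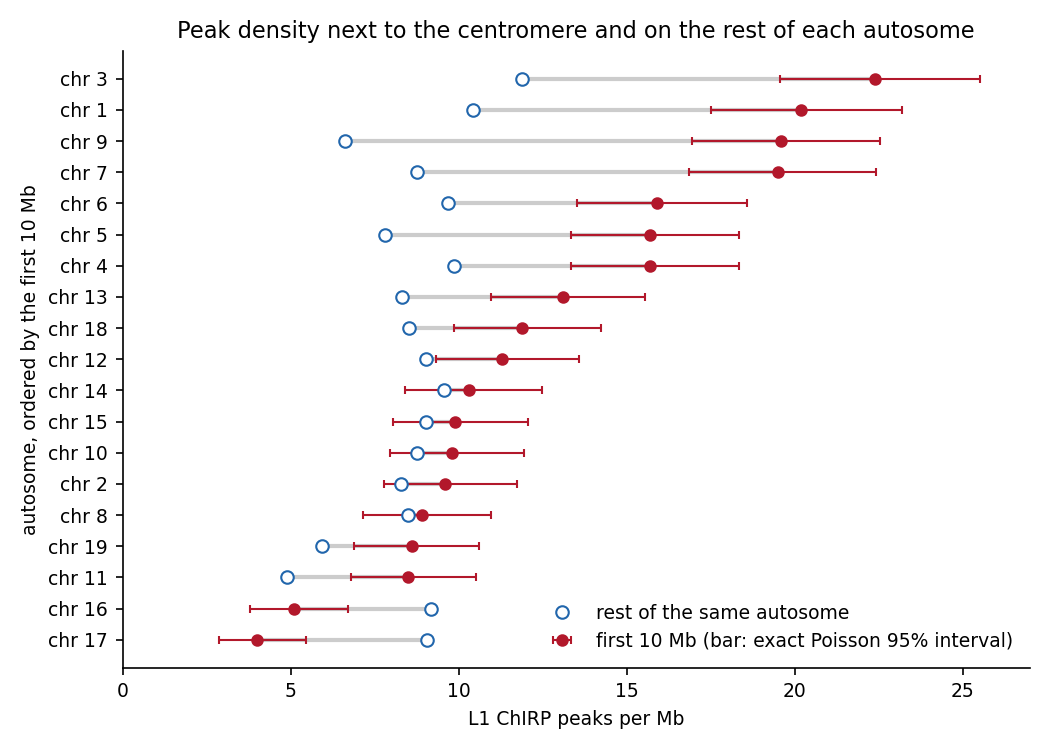
Peaks per Mb (x axis) in the first 10 Mb (filled points, bars are exact Poisson 95% intervals) and on the rest (open points) of each of the 19 autosomes (y axis), ordered by the window. The filled point lies to the right on 17 autosomes, from chromosome 3 at 22.4 down to chromosome 8 at 8.90, 19 at 8.60 and 11 at 8.50, and to the left on chromosomes 16 and 17.

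The windows were set beside the 210 other consecutive 10 Mb windows that lie whole on the autosomes. Those held 8.96 ± 4.55 peaks per Mb (mean ± SD, n = 210 windows), with a range from 0.10 to 22.7. Windows with 150 or more peaks were 7 of the 19 proximal ones (36.8%) and 24 of the others (11.4%). Those with 50 or fewer were 1 of 19, chromosome 17, against 45 of 210 (21.4%), and chromosome 16 with 51 peaks lay just above that limit. The proximal window was the fullest of its chromosome on 3 autosomes, chromosomes 1, 6 and 9, and 1st or 2nd on 7. Stretches as dense as the proximal ones also occurred elsewhere, the densest being the next 10 Mb of chromosome 3 with 22.7 per Mb.

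Knowing how dense the rest of an autosome was told little about its window. Over the 19 autosomes the Pearson correlation of window density with rest density was 0.36 and the Spearman correlation 0.34. Without chromosomes 3 and 11, the farthest from the median in rest density, Pearson's r was 0.07. Dropping them also narrows the range of rest density, which can itself lower r, so the fall does not show what the relation rests on. All points come from 1 library.

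Within the windows the peaks began at the very edge of assembled sequence. On 18 of 19 autosomes the first peak started at most 116 kb from 3 Mb, and on chromosome 4 it began at 2999983. The exception was chromosome 17, whose first peak started at 3628124. The median distance of the first peak from 3 Mb was 30.8 kb, close to the median gap of 28.0 kb between window peaks.

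Peak density did not decay with distance inside the first 10 Mb. Averaged over the 19 autosomes, the 10 bins of 1 Mb held between 11.1 and 14.5 peaks, with 13.4 in the bin nearest the centromere and 11.1 in the last. The first 5 Mb held 1197 peaks (12.6 per Mb, 95% interval 11.9 to 13.3) and the next 5 Mb held 1203 (12.7 per Mb, 12.0 to 13.4). The Spearman correlation of mean bin density with distance was -0.05 over these 10 bins.

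This level average combined autosomes that ran in opposite directions. The first 5 Mb held more peaks than the next 5 Mb on 9 autosomes and fewer on 10. Bin counts fell most steadily with distance on chromosomes 8, 15 and 1, with Spearman correlations of -0.87, -0.82 and -0.82 (10 bins each). On chromosome 8 the first 5 Mb held 72 peaks and the next 17, on chromosome 15 they held 71 and 28, and on chromosome 1 they held 123 and 79. They rose most steadily on chromosome 11, with a correlation of 0.89. There the first 5 Mb held 17 peaks and the next 68. Chromosome 19 likewise held 16 and then 70, and chromosome 12 held 44 and then 69.

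**Figure D2:**
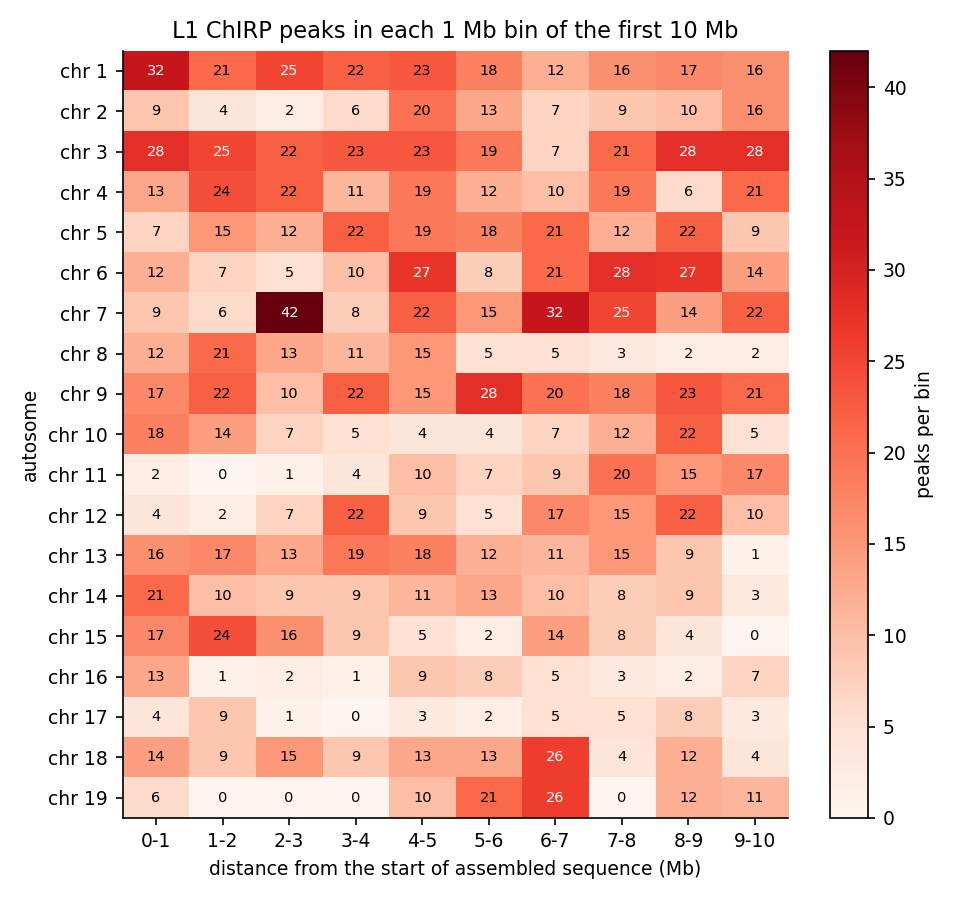
Number of peaks in each 1 Mb bin (x axis, distance from the start of assembled sequence in Mb) of the first 10 Mb of the 19 autosomes (y axis), with darker red for more peaks. Chromosomes 1 and 9 hold at least 10 peaks in every bin, chromosome 3 does so in all but 1 bin with 7, chromosomes 8 and 15 empty with distance, chromosome 11 fills, and chromosomes 16 and 17 hold at most 9 peaks in any bin except the first of chromosome 16, with 13.

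The higher density extended beyond the window to about 20 Mb from the start of assembled sequence. The stretch from 10 to 20 Mb held 13.3 ± 4.47 peaks per Mb (mean ± SD over 19 autosomes), no lower than the 12.6 ± 5.21 of the window itself, and the stretch from 20 to 30 Mb held 8.41 ± 4.06. The window was denser than the stretch from 10 to 20 Mb on 7 of 19 autosomes. In contrast, the stretch from 10 to 20 Mb was denser than that from 20 to 30 Mb on 16 of 19, the exceptions being chromosomes 1, 8 and 10. The highest 5 Mb block of the first 55 Mb was not the one nearest the centromere but that from 10 to 15 Mb, with 14.3 peaks per Mb (95% interval 13.5 to 15.0).

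The fall then took place over a few Mb. Density was 12.3 per Mb from 15 to 20 Mb, 9.44 from 20 to 25 Mb and 7.37 from 25 to 30 Mb, below the pooled 8.83 of the autosomes beyond the window. The mean of the 1 Mb bins was first below that level at 22 Mb. Farther out density rose again to 10.2 from 35 to 40 Mb. It was 10.1 from 40 to 45 Mb, 10.0 from 45 to 50 Mb and 9.35 from 50 to 55 Mb, all above the pooled 8.83. That pooled level includes the last 10 Mb of each autosome, which held 5.44 per Mb. The label of these peaks as centromeric is therefore a statement of position: in the average over autosomes, the first 10 Mb were part of a peak-rich stretch about 20 Mb long. Single autosomes departed from this average, as chromosome 17 did with 4 peaks per Mb in the window, 13.6 in the following 10 Mb and 3.50 in the 10 Mb after that.

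**Figure D3:**
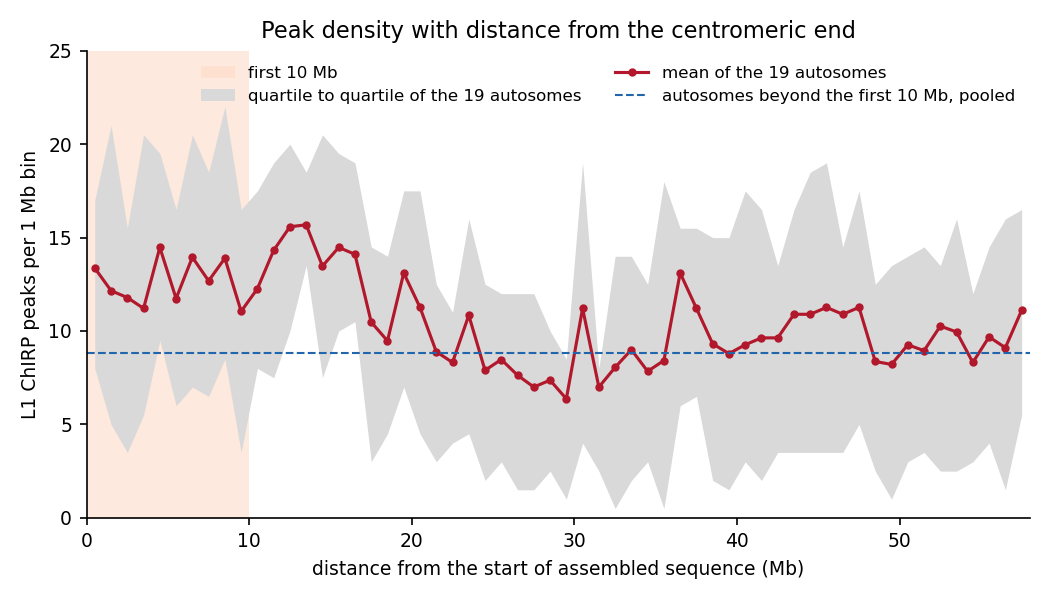
Mean number of peaks per 1 Mb bin over the 19 autosomes (red line) and the span between their quartiles (grey) against the distance in Mb from the start of assembled sequence, with the pooled density of 8.83 per Mb beyond the first 10 Mb as a dashed line. The mean stays between 11.1 and 14.5 in the shaded first 10 Mb, lies within or above that range up to 17 Mb and first passes below the dashed line at 22 Mb.

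**Figure D4:**
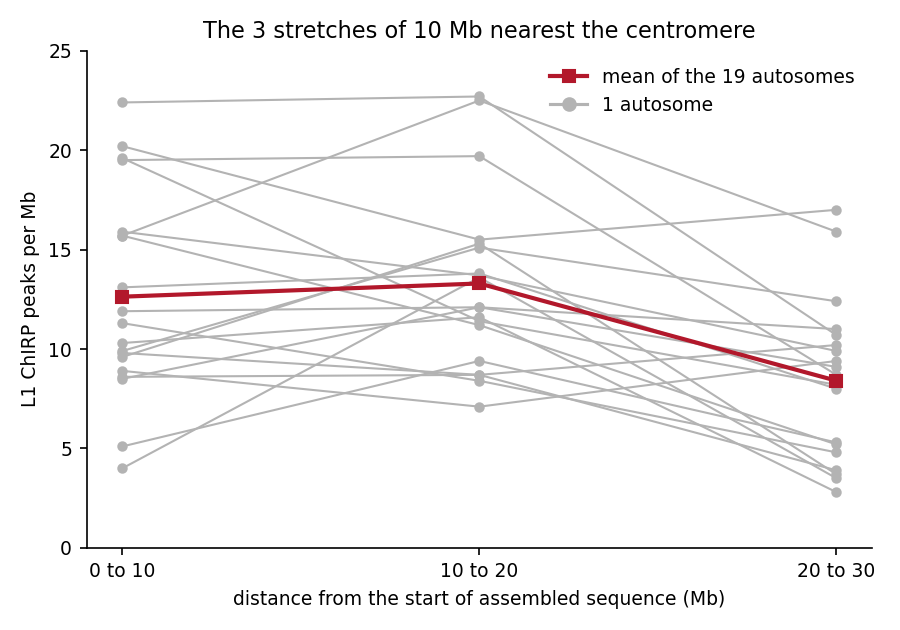
Peaks per Mb (y axis) in the 3 successive stretches of 10 Mb next to the centromere (x axis), with 1 grey line for each of the 19 autosomes and the mean in red. The mean goes from 12.6 to 13.3 and then to 8.41, and grey lines cross between the first pair of stretches.

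Window peaks were wider than those on the rest of the autosomes. The chromatin had been sonicated to between 2 and 5 kb, so fragment size and the calling of peaks both enter a width. Their median width was 6623 bp (95% interval 6522 to 6733), the quartiles were 4549 and 8686 bp, and the extremes 849 and 30492 bp. On the rest the median was 6344 bp (6312 to 6380), so the difference in medians was 278.5 bp. With the window extended to the first 20 Mb it was 157.5 bp. Single autosomes did not all share it: the window median was higher on 12 and lower on 7 of 19 (chromosomes 6, 7, 8, 14, 16, 17 and 18). The range of differences was from -601.5 bp on chromosome 17 to 2284 bp on chromosome 19, where the window median was 8555 bp against 6271 bp. The 95% interval of the window median lay above the rest median on chromosomes 1, 9, 12, 15 and 19 only. It lay below on chromosome 14 only. On chromosome 17, with 40 window peaks, the interval was 4862 to 7028 bp against a rest median of 6047 bp.

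The excess of window peaks grew with their width. Peaks under 2 kb were as frequent per Mb in the windows as elsewhere: 75 of them gave 0.395 per Mb against 0.392, a ratio of 1.01 (95% interval 0.79 to 1.28). For peaks of 2 to 4 kb the ratio was 1.20, for those of 4 to 6 kb 1.50 and for those of 7.5 to 10 kb 1.54. Peaks of 6 to 7.5 kb, the class into which the length of a full-length mouse L1 falls, broke the order with 1.31. Peaks of 10 to 15 kb had a ratio of 1.83. Those of 15 kb or more had a ratio of 2.37 (1.89 to 2.95), with 99 such peaks at 0.521 per Mb against 0.220. These widest peaks were denser in the window on 14 of 19 autosomes. With each autosome left out their ratio ran from 2.13, without chromosome 19, to 2.52.

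Peaks of 10 kb or more had a pooled density ratio of 1.94 (95% interval 1.74 to 2.17). They were denser in the window on 16 of 19 autosomes, where peaks of all widths were denser on 17. Leaving out any 1 autosome kept that ratio between 1.84 and 2.03. They made up 15.9% of window peaks (14.4 to 17.4) and 11.7% of the others (11.2 to 12.1). This share was larger in the window on 13 of 19 autosomes, the exceptions being chromosomes 6, 8, 13, 16, 17 and 18. By autosome it ran from 6.74% of the window peaks of chromosome 8 to 31.4% of those of chromosome 19.

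**Figure D5:**
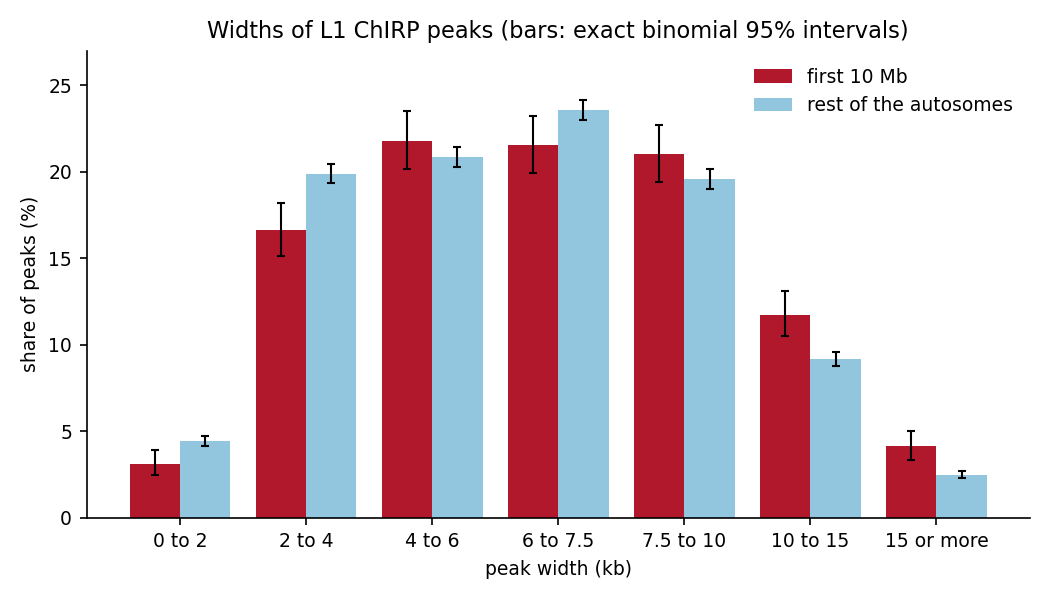
Share of peaks in percent (y axis) by width class in kb (x axis) for the 2400 window peaks (red) and the peaks on the rest of the autosomes (blue), with exact binomial 95% intervals as bars. The windows have the smaller share below 4 kb and the larger share above 10 kb, and the bars of the other classes touch or overlap.

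Window medians were also higher where peaks were equally crowded, but the intervals were apart only in bins with 10 to 19 peaks. In 1 Mb bins with 10 to 19 peaks the median width was 6643 bp in the windows (95% interval 6491 to 6788) and 6248 bp elsewhere (6176 to 6310). In bins with fewer than 10 peaks it was 6724 bp (6451 to 6992) against 6437 bp (6375 to 6495), with intervals that overlap. In bins with 20 or more it was 6576 bp (6369 to 6747) against 6415 bp (6322 to 6488), with intervals that overlap as well. Along the chromosome the median stayed at 6667, 6578 and 6533 bp in the first 3 blocks of 5 Mb. It was 6104 bp from 15 to 20 Mb, where density was still high. From 20 to 55 Mb the block medians ran from 6182 to 6547 bp. Peaks over 10 kb made up 16.8% and 15.0% of the peaks in the 2 window blocks. Their share was 15.8% from 10 to 15 Mb and 15.3% from 30 to 35 Mb. In the other blocks up to 55 Mb it ran from 9.21% to 13.4%.

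The 5 widest window peaks lay on chromosomes 3, 7 and 19. The widest spanned 7174318 to 7204809 on chromosome 3, 30492 bp in all. Chromosome 19 had 3 of the 5, from 8095539 to 8125510 (29972 bp), from 7730645 to 7757749 (27105 bp) and from 7832511 to 7857793 (25283 bp). The remaining one ran from 6019560 to 6045974 on chromosome 7 (26415 bp).

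Neighbouring peaks lay closer together in the windows. The median gap from the end of a peak to the start of the next was 28.0 kb (95% interval 26.3 to 30.5, n = 2392 gaps), against 37.2 kb (36.2 to 38.0) on the rest, a ratio of 0.75. The median gap was shorter than on the same autosome's rest on 15 of 19 autosomes and longer on chromosomes 2, 14, 16 and 17. It was shortest on chromosome 3, at 20.6 kb, and longest on chromosome 17, at 134 kb against 32.9 kb on its rest. Denser peaks are closer on average, so the gap is not a separate measure of density. The same holds for the shares of gaps and neighbours, the chains of peaks and the full or empty bins given below.

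The shares of long gaps differed more than those of the shortest gaps. Gaps under 1 kb, which may separate parts of 1 broader region, made up 9.95% of window gaps (8.78 to 11.2) and 8.83% of the others (8.44 to 9.24). Gaps over 100 kb made up 18.9% (17.3 to 20.5) and 24.2% (23.6 to 24.8). A neighbour within 10 kb was found for 45.0% of window peaks (43.0 to 47.1) and 39.6% of the others (38.9 to 40.3). At the other extreme 6.08% of window peaks (5.16 to 7.12) and 9.29% of the others (8.88 to 9.70) lay over 100 kb from any other.

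Tight chains, runs of at least 4 peaks with gaps under 10 kb, were found 53 times in the windows, or 27.9 per 100 Mb, against 13.3 per 100 Mb elsewhere. They held 246 peaks, 10.3% of the window peaks, and 7.06% of the others were in such chains. The longest had 9 peaks and ran from 5453258 to 5551664 on chromosome 7. On chromosome 12 a chain of 8 peaks ran from 11483616 to 11567928.

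Bins with 20 or more peaks were 45 of the 190 window bins, or 23.7% (17.8 to 30.4), and 10.4% (9.12 to 11.7) of the 2210 whole bins elsewhere. These 45 bins held 1080 window peaks, 45.0% of the total. The 5 fullest were on chromosomes 1, 3, 7 and 9. The bin from 5000001 to 6000000 on chromosome 7 had 42 peaks and 38.2% of its bases covered, and that from 9000001 to 10000000 had 32 peaks and 15.4% covered. Chromosome 1 from 3000001 to 4000000 held 32 peaks (18.6% covered). Chromosome 9 from 8000001 to 9000000 and chromosome 3 from 3000001 to 4000000 held 28 each (22.7% and 21.9% covered), as did 3 further bins. The bins on chromosomes 1 and 3 are the ones nearest to the centromere, while those of chromosome 7 are separated by bins with as few as 8 peaks.

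Bins without a peak were 7 of 190 in the windows, or 3.68% (1.49 to 7.44), and 12.4% (11.1 to 13.8) elsewhere. Chromosome 19 had 4 of the 7, and chromosomes 11, 15 and 17 had 1 each. The longest peak-free stretch of the windows lay on chromosome 19 from 3248295 to 7730644 (4.48 Mb), and 1 of the 3 wide peaks of that chromosome named above begins where it ends. The second was 2.38 Mb long, between 3177812 and 5554365 on chromosome 11. Chromosome 17 followed with 1.96 Mb between 5663364 and 7625716. Shorter ones of 1.59 Mb on chromosome 8 (10289529 to 11874684) and 1.27 Mb on chromosome 10 (8428171 to 9702693) came next. Sequence missing from the assembly also has no peak and was not removed.

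The first 10 Mb of chromosome X did not share the excess. They held 114 peaks, or 11.4 per Mb (95% interval 9.40 to 13.7), against 13.5 on the rest of X, a ratio of 0.85 (0.70 to 1.02). Its density was thus inside the range of the autosomal windows, and what set X apart was its dense rest. At the opposite end, the last 10 Mb before the final peak of each autosome held 5.44 peaks per Mb, and the proximal window was denser on 16 of 19 autosomes, the exceptions being chromosomes 14, 17 and 18. Peaks at that end had a median width of 6335 bp, close to the 6344 bp of the middle of the autosomes.

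The 13 Mb limit cut through no member. The 3 members nearest to it had midpoints 4.01, 12.1 and 12.7 kb inside, on chromosomes 3, 2 and 3, with widths of 7154, 5635 and 6758 bp. The 3 nearest peaks beyond it had midpoints 1.01, 1.75 and 12.5 kb outside, on chromosomes 9, 11 and 7, with widths of 7592, 6390 and 5458 bp. With mean density over the autosomes as high on the far side, the limit marks no fall in that average. Single autosomes did change there: density per Mb went from 19.6 to 11.4 on chromosome 9 and from 4 to 13.6 on chromosome 17. The window was denser than the next 10 Mb on 7 of 19 autosomes.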

How the data were processed

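As deposited, the authors' list of peaks holds 3 columns, chromosome, start and end, without header or score. Per the submitters' processing notes, CASAVA, Bowtie2 2.2.2, MACS 1.4.2 and mm9 were used, with no roles or settings, and no label or header says how reads that match many repeats were placed. That choice, and the caller's joining of nearby signal, can change number and width of peaks at L1 copies.

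Positions are printed from 1. A peak belongs to the window or bin of its midpoint and a gap to that of its own midpoint. The rest of an autosome runs from 13 Mb to its last peak's end. Density intervals are exact Poisson, ratios conditional exact binomial, shares Clopper-Pearson, and medians binomial order statistics. The functions for density and width were tested on simulated data. Python 3.11.15, numpy 2.4.6, pandas 2.3.3, scipy 1.17.1 and matplotlib 3.10.9 were used.

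Members, limits and comparisons were chosen with earlier results of these data known. Named regions are every window by its count, the 5 fullest bins, the 5 widest peaks, the 5 longest gaps and the 3 peaks on each side of the limit. Chains, stretches and other windows of 10 Mb, width classes and widths by bin were added after values were seen. No mm9 genome or annotation was used here, so overlap with genes or repeats and peak sequences were not analysed.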

Additional observations from a re-analysis of the deposited data

Results flagged for a closer look

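Unplaced sequence assigned to autosomes held 32 peaks that no comparison uses. They were 0.13% of all peaks, on 7 such sequences with 1 to 9 peaks each, and their median width was 6632 bp (range 1279 to 19199 bp). Their distance from a centromere is unknown. No control library was used here, so the number of such peaks without L1 probes is unknown.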

How the results depend on the processing

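The ratio of window to rest density stayed above 1 under 33 alternatives, and 25 of them lay inside the counting interval of the reported 1.43. Most of those 25 only left out 1 autosome, which can move a pooled ratio little, so the count is no measure of independent agreement. The ratio was 1.54 for the first 20 Mb, 1.55 when bases were counted in place of peaks and 1.31 when empty bins were dropped. It was 1.29 for peaks up to the median width and 1.58 for wider ones. Added after seeing the data, it was 1.21 without the 5 autosomes with the fullest windows (1, 3, 6, 7 and 9) and 1.50 against the autosomes beyond 20 Mb. Leaving out each autosome in turn gave 1.37 to 1.49, and a rest without the last 10 Mb of each autosome gave 1.38. The width difference of 278.5 bp was 157.5 bp for the first 20 Mb and 238 to 309 bp with each autosome left out, and the gap ratio of 0.75 was 0.74 to 0.78 likewise. Density first fell below that of the rest at 22 Mb in 1 Mb bins, at 24 Mb in bins of 2 Mb and at 25 Mb in bins of 5 Mb. The gene overlap alternative was not run, as no mm9 annotation was used. No paired analysis was possible because no group has a 2nd library. The read depth is unknown, so a stretch without a peak may hold signal below detection.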

Other observations

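The genes at the centromeric ends can be named by their order in RefSeq for GRCm38.p6, another build, so no peak was placed in or near any of them. The chromosomes were chosen after their values were seen, and predicted genes without a full symbol were passed over. On chromosome 3, whose window held the most peaks, the order begins with Hnf4g, a nuclear receptor gene, Zfhx4, a zinc finger homeobox gene, Pex2, a gene of peroxisome assembly, and Pkia, an inhibitor of protein kinase A. Chromosome 1 begins with Xkr4, Rp1, a gene of photoreceptor cilia, and Sox17, an endoderm transcription factor gene. Chromosome 9 begins with Alkbh8, a tRNA-modifying enzyme gene, Cwf19l2 and Gucy1a2, a subunit of soluble guanylate cyclase.

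The 4 autosomes with the fewest window peaks were chromosomes 17, 16, 11 and 19. Chromosome 16 begins with the olfactory receptor gene Olfr161, Mefv, which encodes pyrin, and the zinc finger gene Zfp263. Chromosome 17 begins with Scaf8, Tiam2, an exchange factor for Rac, and Tfb1m, a mitochondrial rRNA methyltransferase gene. Chromosome 11 begins with Sfi1, a centrosome protein gene, Eif4enif1, which encodes a transporter of the cap-binding factor eIF4E, and Drg1. Chromosome 19, with a 4.48 Mb stretch without peaks in its window, begins with Ighmbp2, Mrpl21, a mitochondrial ribosomal protein gene, and Cpt1a, the enzyme of fatty acid entry into mitochondria. Whether gene content and peak density are related there was not tested.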
